A study of Mus musculus with 26 samples.

Results

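The 40 genes described here encode the machinery of mitosis: the kinases and cyclins that start it, the condensin and surface proteins of its chromosomes, the kinetochore, the spindle checkpoint, the factors that release anaphase, and the motors that build the spindle and divide the cell. They were listed by gene symbol and no measured value entered the rule, but earlier results of these data were known when the list was made. All 40 were found among the 53465 genes listed for regenerating muscle and among the 55487 listed for cultured myoblasts.

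As background, a cell enters mitosis when cyclin B bound to Cdk1 is activated, and it leaves when the anaphase-promoting complex with its activator Cdc20 marks cyclin B and securin for destruction. Until every kinetochore holds spindle microtubules, the checkpoint proteins Bub1, Bub1b, Mad2l1 and Ttk keep Cdc20 inactive. Transcripts of these genes accumulate in G2 and mitosis and are low in quiescent and terminally differentiated cells, so in muscle they mark dividing progenitors and dividing infiltrating cells rather than fibres. In a bulk sample, more cells that carry a transcript and more transcript per cell cannot be told apart.

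In the muscle series, the tibialis anterior (TA) muscle of 6-week-old male C57BL/6J mice, by the methods, was injected with cardiotoxin (CTX), a venom protein that destroys fibres. It was sampled on days 1, 3, 5 and 10, and the libraries labelled day 0 (CTX D0 to CTX D10) are the reference, with 2 libraries per day. The methods name saline as the control, and whether the day 0 muscle had received it is not settled. In the culture series, C2C12 cells, a mouse myoblast line, were sampled in growth medium with 10% fetal bovine serum (D0, or GM) and on day 3 in differentiation medium with 2% horse serum (D3, or DM3). The groups were CTRL and Cas9M3, with 2 libraries per group and time. By the methods, Cas9M3 cells were puromycin-selected stable cells that carried a lentiviral dCas9-KRAB repressor and guides against the promoter of Mettl3, the m6A methyltransferase of mRNA. The deposited design text speaks of a knockout instead. Nothing in the labels says that the libraries of a group came from separate animals or cultures, so p-values measure only the spread between these libraries. That spread may be technical, though not wholly so for muscle day 3, whose 2 libraries differed in the sex-linked Xist and Ddx3y.

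Values are FPKM, fragments per kilobase of exon scaled by library depth. The muscle libraries held about 14170000 to 18820000 reads on genes and the C2C12 libraries about 14230000 to 29560000, as recovered from the steps in the low values, and 1 read on 1 kb was worth 0.0494 to 0.0817 and 0.0315 to 0.104 FPKM. A gene was tested when it reached 0.5 FPKM in at least 2 libraries, which left 16753 genes in muscle and 13824 in C2C12. Of the 40 genes, 39 passed in muscle and 40 in C2C12. Fold changes are limma estimates on the log2(FPKM + 0.1) scale, which understates changes of low genes, and a gene was called at a Benjamini-Hochberg adjusted p of at most 0.05 over all genes tested. An exact permutation test of 2 libraries against 2 cannot give a two-sided p below 0.333, so every call rests on the spread that limma estimates over all groups of a table.

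Some libraries stood apart. Xist, the RNA of the inactive X chromosome of female cells, was at 5.77 to 10.0 FPKM in both libraries of day 0, both of day 10 and replicate 2 of day 3. It was at most 0.152 FPKM in the other 5 muscle libraries, in which the Y-linked Ddx3y stood at 6.10 to 11.4 FPKM. Where Xist was present, Ddx3y was at most 0.101 FPKM, so these libraries conflict with the male mice stated in the methods. The libraries of day 3 thus included 1 of each kind. In C2C12, annotated ribosomal RNA took 0.392% to 0.515% of the reads in the replicate 1 libraries and 8.03% to 27.3% in the replicate 2 libraries, with the highest share in CTRL D0 replicate 2.

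Promoters of mitotic genes are known for paired elements. The cell cycle genes homology region (CHR) is bound by MuvB complexes with B-Myb or a DREAM repressor, and CCAAT boxes are bound by NF-Y. RefSeq promoters of build GRCm38.p6, reaching from 250 bases before to 50 bases after the start, were matched by symbol for 32 of the 40 genes, with 33 promoters in all. They were searched on both strands for the CHR letters TTTGAA and TTCGAA and for CCAAT. A CHR match stood in 26 of the 33 promoters (78.8%), against 17.6% of the 21263 promoters of protein-coding genes and 19.2% of all 32851 promoters. A CCAAT match stood in 25 (75.8%), against 38.2% and 37.4%, and both were present in 23 (69.7%), against 7.1% and 7.5%. At least 2 CCAAT matches were found in 15 promoters (45.5%), against 12.8% and 11.7%. The matches of both kinds shared bases in 1 promoter. A match is a description of letters, not of a bound site. The stretch from 120 bases before to 50 bases after the start is given 5′ to 3′ on the strand of the gene, for 5 genes with both elements and for Pttg1, which had neither match. Capitals mark the matches.
Cdk1, chr10:69352863-69353032, minus strand: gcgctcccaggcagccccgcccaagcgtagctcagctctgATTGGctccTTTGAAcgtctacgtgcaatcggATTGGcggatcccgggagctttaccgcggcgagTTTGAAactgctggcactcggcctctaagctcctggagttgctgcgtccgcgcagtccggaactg
Ccnb2, chr9:70421505-70421674, minus strand: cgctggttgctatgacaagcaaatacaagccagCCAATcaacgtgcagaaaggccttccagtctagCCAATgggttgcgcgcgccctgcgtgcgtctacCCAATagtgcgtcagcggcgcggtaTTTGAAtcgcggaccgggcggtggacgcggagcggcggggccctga
Plk1, chr7:122159315-122159484, plus strand: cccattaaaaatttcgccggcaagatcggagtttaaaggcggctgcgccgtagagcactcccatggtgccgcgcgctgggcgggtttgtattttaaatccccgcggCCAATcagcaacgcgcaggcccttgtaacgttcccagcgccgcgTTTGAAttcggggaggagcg
Cdc20, chr4:118437294-118437463, minus strand: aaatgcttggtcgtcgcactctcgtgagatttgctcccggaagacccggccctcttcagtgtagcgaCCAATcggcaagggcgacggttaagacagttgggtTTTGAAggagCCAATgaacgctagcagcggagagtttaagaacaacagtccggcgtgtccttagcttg
Ube2c, chr2:164769809-164769978, plus strand: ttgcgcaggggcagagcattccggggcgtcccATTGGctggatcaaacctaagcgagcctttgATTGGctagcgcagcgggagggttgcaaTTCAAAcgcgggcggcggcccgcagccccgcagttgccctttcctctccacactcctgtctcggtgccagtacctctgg
Pttg1, chr11:43425932-43426101, minus strand: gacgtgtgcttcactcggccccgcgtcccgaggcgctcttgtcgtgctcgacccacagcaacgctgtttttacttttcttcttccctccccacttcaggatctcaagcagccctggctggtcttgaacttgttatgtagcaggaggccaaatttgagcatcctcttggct

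In Ccnb2, CCAAT matches began at positions -87, -54 and -21, and TTTGAA began at position 5, counted from 1 at the start. Cdk1 carried ATTGG, the reverse complement of CCAAT, at -80 and -48, and TTTGAA at -71 and -15. The promoter of Cdc20 had TTTGAA at -18 between CCAAT at -53 and -8, and that of Plk1 had CCAAT at -14 and TTTGAA at 31. Ube2c carried TTCAAA, the reverse complement of TTTGAA, at -29 and ATTGG at -88 and -57 within this stretch. Besides Pttg1, the promoters of Birc5, Mad2l1, Mybl2 and Nuf2 had no match of either kind in the whole window. All of these but Pttg1 rose on day 3 in muscle. The window of Pttg1 reached up to chr11:43426231, inside the annotated gene, whose 5′ end is at chr11:43426251. Bases upstream of that end were not searched.

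Day 0 muscle held little of these transcripts. Leaving out Ube2c and Pttg1, which are described apart, the median over the genes was 0.138 and 0.429 FPKM in the libraries of day 0, 0.624 and 0.750 on day 1, 2.55 and 1.35 on day 3, 1.35 and 1.74 on day 5, then 0.275 and 0.502 on day 10. The median thus stood highest in the libraries of days 3 and 5 and its day 10 range overlapped that of day 0. By the mean of the 2 libraries, 34 of the 40 genes were highest on day 3, and 30 were lowest on day 0. Such counts were not made over all genes, of which 24.5% rose and 24.3% fell on day 3 against day 0. Foxm1, Kif11 and Mybl2 were highest on day 5 and Aurka on day 1. In C2C12 the same transcripts were abundant, with medians over all 40 genes of 2.72 to 24.4 FPKM per library. Each table was scaled separately, so levels are not compared between muscle and C2C12.

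**Figure D1:**
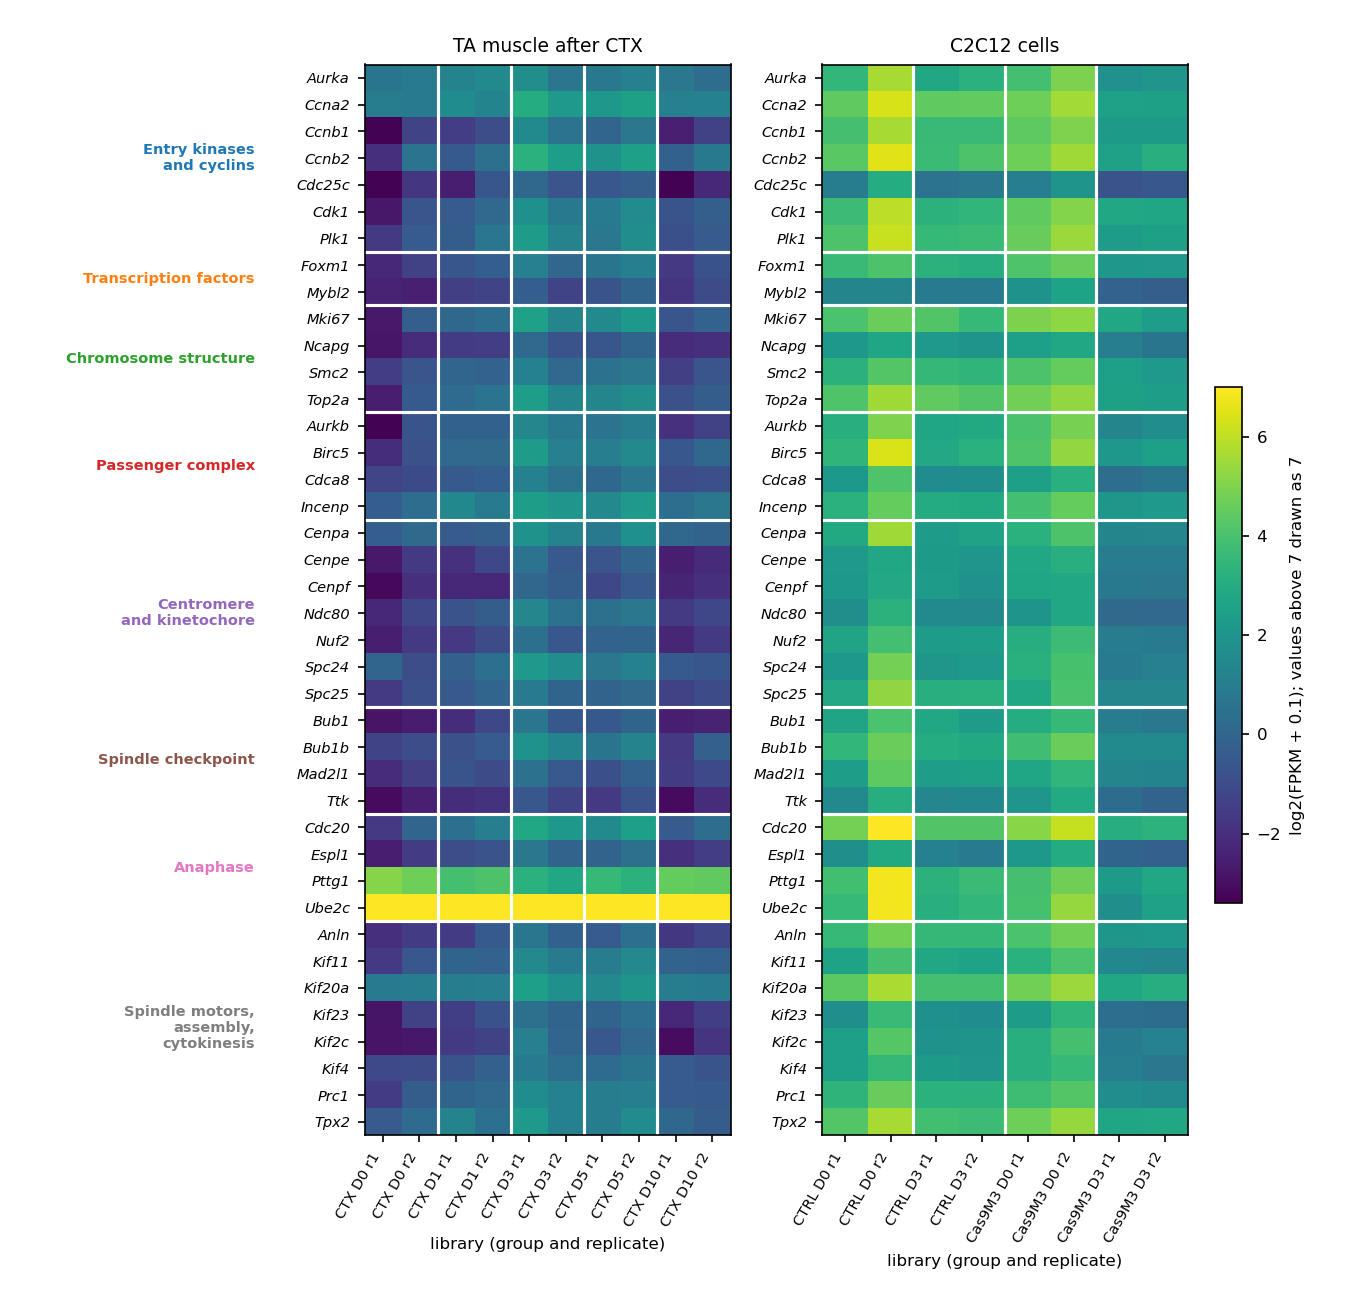
Level of the 40 genes, as log2(FPKM + 0.1) with values above 7 drawn as 7, in the 10 muscle libraries (left) and the 8 C2C12 libraries (right), with genes grouped by role. Most rows are brightest in the day 3 and day 5 muscle libraries and in CTRL D0 replicate 2, and Ube2c and Pttg1 are bright throughout in muscle.

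On day 3 against day 0, 36 of the 39 genes tested rose and 2 fell, where 24.5% of all tested genes rose and 24.3% fell. The median log2 fold change of the 39 genes was 2.28, against 0.01 over all genes tested. Adding the threshold of 2 on the log2 scale that the study uses for DEGs left 25 genes higher, where 9.46% of all genes passed. On day 1 none was called higher and 1 was called lower, where 3.53% of all genes rose and 2.47% fell. At an unadjusted p under 0.05 there were 14 on day 1, where 4493 of all 16753 genes were, and the median was 0.96. On day 5, 30 rose and 1 fell against day 0, where 12.9% rose and 12.5% fell, with a median of 2.05. The DEG threshold left 19 of these, where 4.21% of all genes passed. Days 1 and 5 shared no library kind by Xist with day 0, so their changes against day 0 cannot be told apart from that difference. On day 10 against day 0, limma called 0 genes of the 39, where 0.00597% of all genes were called in either direction. At an unadjusted p under 0.05 there were 2, where 1697 of all 16753 genes were, and the median was 0.32.

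Among the kinases and cyclins that start mitosis, 6 of 7 rose on day 3, where 24.5% of all genes did. Cdk1, the mitotic kinase itself, had 0.0488 and 0.531 FPKM on day 0, which rested on 3 and 35 reads. It reached 0.651 and 1.02 FPKM on day 1, 3.43 and 1.65 on day 3, 1.72 and 2.97 on day 5, followed by 0.513 and 0.734 on day 10. The libraries of days 3 and 5 lay above all others, and the log2 fold change of Cdk1 on day 3 was 3.02 ± 0.67 (SE, adjusted p = 0.00807). Cyclin B1 (Ccnb1) was listed at 0 and 0.320 FPKM on day 0, where 3 reads would have given 0.0571 FPKM in the library at 0. Ccnb1 stood at 0.248 and 0.415 on day 1, 2.82 and 1.36 on day 3, 0.888 and 1.56 on day 5, then 0.0775 and 0.286 on day 10. Its libraries of days 3 and 5 did not overlap with those of the other days, with a change of 3.33 ± 0.74 on day 3 (adjusted p = 0.00791).

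Cyclin B2 (Ccnb2) had the largest log2 fold change of the 39 genes on day 3, 3.51 ± 0.78 (adjusted p = 0.00802). It went from 0.157 and 1.37 FPKM on day 0 to 9.36 and 5.07 on day 3, with 0.639 and 1.24 on day 1, 3.65 and 5.47 on day 5, followed by 0.8001 and 1.63 on day 10. Day 0 was itself spread widely, between 3 and 28 reads. Plk1, the polo-like kinase of centrosome maturation and spindle assembly, stood at 0.219 and 0.647 FPKM on day 0, 0.699 and 1.49 on day 1, 5.00 and 2.29 on day 3, 1.59 and 3.23 on day 5, then 0.446 and 0.651 on day 10. Its change of 2.84 ± 0.59 on day 3 was called (adjusted p = 0.00583). Cyclin A2 (Ccna2) rose by 1.71 and Cdc25c, the phosphatase that activates Cdk1, by 2.25 with an adjusted p of 0.0491.

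Aurka, the centrosomal Aurora kinase, was the gene of this role that was not called. It had 1.46 and 1.78 FPKM on day 0, 2.26 and 2.89 on day 1, 3.20 and 1.52 on day 3, 1.65 and 2.08 on day 5, followed by 1.61 and 1.13 on day 10. The libraries of day 3 overlapped those of day 0, and the log2 fold change was 0.44 ± 0.35 (adjusted p = 0.329).

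**Figure D2:**
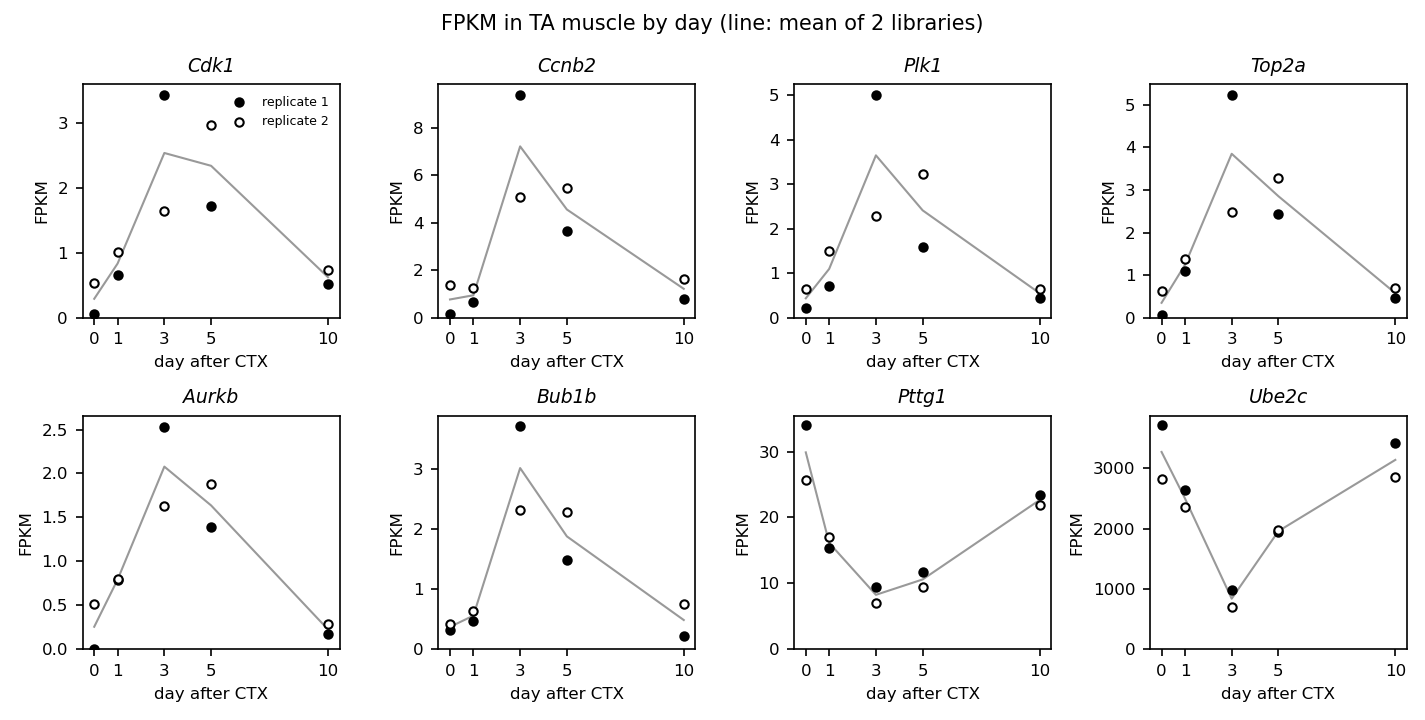
FPKM of 8 genes in TA muscle by day after CTX, with 1 point per library and a line through the means of the 2 libraries. Cdk1, Ccnb2, Plk1, Top2a, Aurkb and Bub1b peak on day 3, while Pttg1 and Ube2c are lowest there.

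Foxm1 and Mybl2 encode transcription factors that act on G2 and mitotic promoters, and both rose. Foxm1 went from 0.112 and 0.286 FPKM on day 0 to 2.10 and 0.911 on day 3 and 1.45 and 2.00 on day 5, with 0.546 and 0.714 on day 1 and 0.213 and 0.485 on day 10 (2.38 ± 0.50 on day 3, adjusted p = 0.00616). Mybl2, which encodes B-Myb, was the lower of them, at 0.0866 and 0.0808 FPKM on day 0, 0.271 and 0.312 on day 1, 0.711 and 0.320 on day 3, 0.517 and 0.865 on day 5, then 0.176 and 0.407 on day 10. Its change on day 3 was 1.67 ± 0.48 (adjusted p = 0.0232), and its day 10 range overlapped that of day 3.

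All 4 genes of chromosome structure and surface rose on day 3, where 24.5% of all genes did. Mki67, which encodes the Ki-67 protein that coats mitotic chromosomes, had 0.0558 and 0.744 FPKM on day 0, 0.972 and 1.18 on day 1, 5.78 and 2.45 on day 3, 2.90 and 4.36 on day 5, followed by 0.528 and 0.817 on day 10. Its change of 3.42 ± 0.74 (adjusted p = 0.00734) was the second in size after Ccnb2. Top2a, the topoisomerase that untangles sister DNA, stood at 0.0712 and 0.623, 1.09 and 1.38, 5.22 and 2.48, 2.43 and 3.27, and 0.462 and 0.686 FPKM on days 0, 1, 3, 5 and 10 (3.40 ± 0.64 on day 3, adjusted p = 0.00401). For both genes the libraries of days 3 and 5 lay above every library of the other days. The condensin subunit Smc2 had 0.249 and 0.533, 0.892 and 0.806, 2.16 and 1.01, 1.31 and 1.61, and 0.268 and 0.537 FPKM on the same days, with a change of 1.75 ± 0.45 on day 3 (adjusted p = 0.0140). The condensin subunit Ncapg rose by 2.14.

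The chromosomal passenger complex, which corrects wrong attachments to the spindle, rose as a whole on day 3. All 4 of 4 genes were called, where 24.5% of all genes rose, with log2 fold changes from 1.99 (Cdca8) to 3.16 (Birc5). Its kinase Aurkb was listed at 0 and 0.508 FPKM on day 0, where 3 reads would have given 0.0817 FPKM in the library at 0. Aurkb then stood at 0.782 and 0.801 on day 1, 2.53 and 1.63 on day 3, 1.40 and 1.88 on day 5, then 0.166 and 0.282 on day 10 (3.11 ± 0.73 on day 3, adjusted p = 0.0102). Survivin (Birc5) stood at 0.142 and 0.462 FPKM on day 0, 1.01 and 1.03 on day 1, 4.83 and 2.11 on day 3, 1.97 and 2.76 on day 5, followed by 0.576 and 0.9752 on day 10 (3.16 ± 0.50, adjusted p = 0.00200). In both genes day 1 already lay above day 0 in every library, although the change on day 1 was not called.

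All 7 centromere and kinetochore genes rose on day 3, where 24.5% of all genes did. Their log2 fold changes ran from 1.63 for Cenpa, the histone H3 variant that marks centromeres, to 2.70 for Ndc80, the microtubule-binding subunit of the outer kinetochore. Ndc80 had 0.109 and 0.340 FPKM on day 0, 0.508 and 0.692 on day 1, 2.58 and 1.35 on day 3, 1.25 and 1.57 on day 5, then 0.223 and 0.343 on day 10 (2.70 ± 0.45, adjusted p = 0.00232). Cenpf, a large protein of the outer kinetochore, stood at 0.0104 and 0.150, 0.113 and 0.113, 0.936 and 0.695, 0.358 and 0.605, and 0.101 and 0.156 FPKM on days 0, 1, 3, 5 and 10 (2.45 ± 0.51, adjusted p = 0.00627). Unlike Birc5, Cenpf had its day 1 libraries inside the day 0 range.

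Of the spindle checkpoint genes, Bub1, Bub1b and Mad2l1 rose on day 3 (24.5% of all genes did), by 2.79, 2.70 and 1.75. Bub1b had 0.319 and 0.420 FPKM on day 0, 0.474 and 0.641 on day 1, 3.71 and 2.32 on day 3, 1.48 and 2.28 on day 5, followed by 0.210 and 0.758 on day 10 (2.70 ± 0.49, adjusted p = 0.00334). Its 2 day 3 libraries lay above the libraries of every other day. Ttk, the checkpoint kinase Mps1, did not reach the filter. It had 0.0163 and 0.0761 FPKM on day 0, 0.142 and 0.170 on day 1, 0.577 and 0.312 on day 3, 0.212 and 0.495 on day 5, then 0.0166 and 0.138 on day 10, so it was also highest on days 3 and 5.

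Cdc20, the activator of the anaphase-promoting complex, had 0.215 and 0.882 FPKM on day 0, 1.23 and 1.96 on day 1, 7.11 and 4.34 on day 3, 2.89 and 5.46 on day 5, followed by 0.656 and 1.13 on day 10. Its libraries of days 1, 3 and 5 lay above those of days 0 and 10, and the change on day 3 was 3.35 ± 0.58 (adjusted p = 0.00281). Espl1, which encodes separase, the protease that cuts cohesin, rose by 2.39. The other anaphase genes, Pttg1 and Ube2c, were the 2 called lower.

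Pttg1, which encodes securin, the inhibitor of separase, stood at 34.1 and 25.7 FPKM on day 0, 15.3 and 17.0 on day 1, 9.47 and 7.02 on day 3, 11.7 and 9.51 on day 5, then 23.4 and 21.9 on day 10. Day 3 was thus its lowest day and day 0 its highest, without overlap, and its change on day 3 was -1.85 ± 0.20 (adjusted p = 4.94e-04). It was also the gene called lower on day 1 (-0.87, adjusted p = 0.0481). The call was repeated on day 5, at -1.48 (adjusted p = 0.00966). On day 0 it rested on 849 and 687 reads, and its exons overlap no other annotated gene.

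Ube2c encodes the E2 enzyme of the anaphase-promoting complex. In muscle it was listed at 3716 and 2825 FPKM on day 0, 2647 and 2354 on day 1, 973 and 699 on day 3, 1937 and 1977 on day 5, followed by 3426 and 2851 on day 10, with a change of -1.97 ± 0.25 on day 3 (adjusted p = 7.72e-04). On chromosome 2 its exons overlap on the opposite strand with those of Tnnc2, the fast-fibre troponin C, over 592 bases, or 22.8% of the exons of Ube2c. Tnnc2 stood at 2203 to 11825 FPKM in muscle, and the ratio of Ube2c to Tnnc2 was 0.313 to 0.318 in all 10 libraries. In C2C12, where Tnnc2 was at 0.953 to 36.4 FPKM, the ratio went from 0.264 to 51.8. In CTRL D3, with Tnnc2 at 33.2 and 36.4 FPKM, it was 0.264 and 0.301, near that of muscle. Whether reads were counted by strand is not stated, so the Ube2c values in muscle and in CTRL D3 cannot be told apart from those of Tnnc2.

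**Figure D3:**
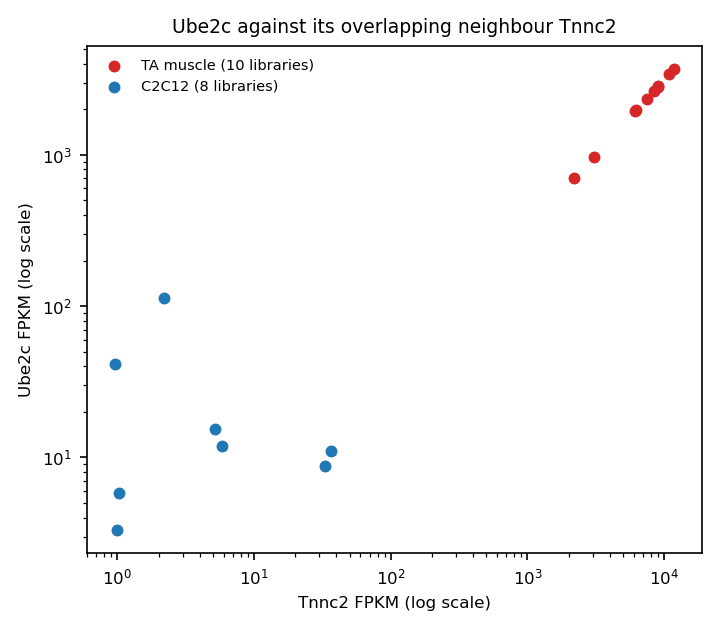
Ube2c against Tnnc2 in FPKM on log axes, with 1 point per library of muscle (10) or C2C12 (8). The muscle points lie on a line at a ratio of 0.313 to 0.318. The C2C12 points run from 0.264 to 51.8, with both CTRL D3 points near that line (0.264 and 0.301).

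Overlapping exons also touch other genes of the list. Those of Kif20a share 29.3% of their length with Cdc23, those of Kif4 15.1% with Pdzd11, those of Ncapg 13.4% with Lcorl, those of Ccna2 12.5% with Exosc9, and those of Prc1 11.1% with Rccd1, each on the opposite strand. Cdc23 was at 2.22 to 3.50 FPKM in muscle, near the 1.71 to 5.51 FPKM of Kif20a. Pdzd11 was at 4.15 to 8.74 FPKM there against 0.364 to 1.76 for Kif4. Exosc9 was at 3.72 to 5.64 FPKM against 1.72 to 8.20 for Ccna2, and Rccd1 at 0.986 to 2.44 against 0.244 to 3.07 for Prc1. Low values of Kif20a, Kif4, Ccna2 and Prc1 are thus uncertain in muscle.

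The motors and the genes of spindle assembly and cytokinesis all rose on day 3, 8 of 8 (24.5% of all genes did), by 1.22 (Kif20a) to 3.36 (Kif2c). Kif11, the Eg5 motor that pushes spindle poles apart, had 0.217 and 0.575 FPKM on day 0, 0.855 and 0.806 on day 1, 2.71 and 1.71 on day 3, 1.85 and 2.76 on day 5, then 0.847 and 0.798 on day 10 (2.29 ± 0.39, adjusted p = 0.00263). Every later library of Kif11 lay above both of day 0, day 10 included. Tpx2, which nucleates spindle microtubules, stood at 0.652 and 1.07, 2.25 and 1.20, 4.58 and 2.16, 1.89 and 2.99, and 0.995 and 0.693 FPKM on days 0, 1, 3, 5 and 10 (1.79 ± 0.46, adjusted p = 0.0139). Replicate 2 of day 3 lay below replicate 1 of day 1 for this gene. Kif2c, a kinesin that takes apart microtubules at centromeres, rested on 2 and 3 reads on day 0 and on 181 and 79 on day 3.

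From day 3 to day 10, 33 of the 39 genes fell and 2 rose, where 18.8% of all genes fell and 19.1% rose. The 2 that rose were Ube2c (1.92 ± 0.25, adjusted p = 0.00133) and Pttg1 (1.46 ± 0.20, adjusted p = 0.00170). The median was -1.84, and 17 passed the DEG threshold, where 6.1% of all genes did. The largest changes were those of Kif2c (-2.996), Ccnb1 (-2.98) and Aurkb (-2.74). Aurka, Cdk1, Mad2l1 and Mybl2 were not called, with values of -0.67, -1.80, -1.30 and -0.64. From day 1 to day 3, 14 rose and 2 fell, where 14.5% and 16.6% of all genes did, with the largest called rises in Ccnb2 (2.81), Bub1b (2.22) and Cenpf (2.09). Ccnb1 had a value of 2.29 in this comparison and narrowly missed the threshold (adjusted p = 0.0503). Only 3 genes rose there without replicate 1 of day 1 (10.5% of all genes did), 5 without its replicate 2 (11.2% of all genes) and 5 without replicate 2 of day 3 (3.16% of all genes). From day 3 to day 5, 1 gene was called higher (Ube2c, 1.25) and 0 lower, where 7.23% and 5.46% of all genes were. At an unadjusted p under 0.05 there were 2, where 4920 of all 16753 genes were, and the median was -0.34.

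The 2 libraries of day 3 differed more for these genes than for most. All 40 were lower in replicate 2, with a median ratio to replicate 1 of 0.547, while the median log2 ratio over all genes tested was -0.01. Without replicate 1 of day 3, 19 genes rose against day 0 (16% of all genes did), 0 rose against day 1 (6.24% of all genes did) and 6 fell from day 3 to day 10 (9.93% of all genes did), and the median from day 3 to day 5 turned to 0.14. Leaving out replicate 1 of day 0 left 25 genes higher on day 3 (15.8% of all genes were). For day 5 against day 0, 0 were then called (0.102% of all genes were higher). The same comparison gave 0 calls when day 5 lacked replicate 2 (0.0906% of all genes were higher) and 5 higher when it lacked replicate 1 (2.43% of all genes). With replicate 1 of day 10 left out, 9 genes fell from day 3 to day 10 (9.33% of all genes did).

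Of the kinds of library told apart by Xist, only day 3 held both. Days 0 and 10 held only libraries with Xist, and days 1 and 5 only libraries without it. Comparisons of days that share a kind were repeated within that kind. Among the libraries with Xist, day 3 had 1 library, and it lay above both of day 0 for 36 of the 39 genes (44.2% of all genes did so), with a median difference of 1.97. Both day 10 libraries lay below it for 35 genes (43.4% of all genes), with a median of -1.41. Among the libraries without Xist, the 1 library of day 3 lay above both of day 1 for 37 genes (38.1% of all genes), and both of day 5 lay below it for 35 (41.9% of all genes), with a median of -0.73. With a term for Xist in the fit, 20 genes rose and 2 fell on day 3 against day 0 (17% of all genes rose), 8 fell from day 3 to day 10 (10.6% of all genes) and 5 rose from day 1 to day 3 (3.68% of all genes). Neither day 1 nor day 5 has a library kind in common with day 0. In that fit, 0 genes of the list were called for either day against day 0 (0% of all genes were).

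Other genes moved on the same days. Of 67 other mitosis genes, 54 passed the filter. On day 3 against day 0, 39 rose and 2 fell, where 24.5% and 24.3% of all genes did, with a median of 1.80. The largest were Melk (3.21), Knstrn (3.06) and Cenpm (2.91), and the smallest Ncapd3 (-0.79), Cenpq (-0.54) and Ncaph2 (-0.33). Of 19 DNA replication genes tested, 11 rose and 0 fell, beside the same shares of all genes. Their median was 1.42, led by Rrm2, the small subunit of ribonucleotide reductase (3.33). Summed over 6 macrophage and monocyte markers, the level was 14.6 to 24.7 FPKM on day 0, 91.3 to 101 on day 1, 341 to 352 on day 3, 119 to 145 on day 5, and 22.8 to 64.8 on day 10. The 5 muscle progenitor and myoblast markers summed to 777 and 838 FPKM on day 0 and 803 and 970 on day 3. Within that list, Myog, the differentiation factor of myoblasts, went from 7.73 and 11.0 FPKM at day 0 to 262 and 234 at day 3. Des, the largest part of the sum, went from 748 and 815 FPKM to 469 and 652. The 6 fibre markers summed to 38480 and 40075 FPKM on day 0 and 10339 and 9299 on day 3. The 4 fibroadipogenic progenitor markers summed to 65.8 to 133 FPKM on day 0 and 463 to 524 on day 5, and the 4 endothelial markers to 29.4 to 80.6 FPKM over all days. The 6 neutrophil markers summed to at most 18.8 FPKM and the 5 lymphoid markers to at most 1.41. The 4 erythroid markers summed to 27.7 to 429 FPKM with no order by day. What part these cells have in the values of the mitotic genes was not tested.

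**Figure D4:**
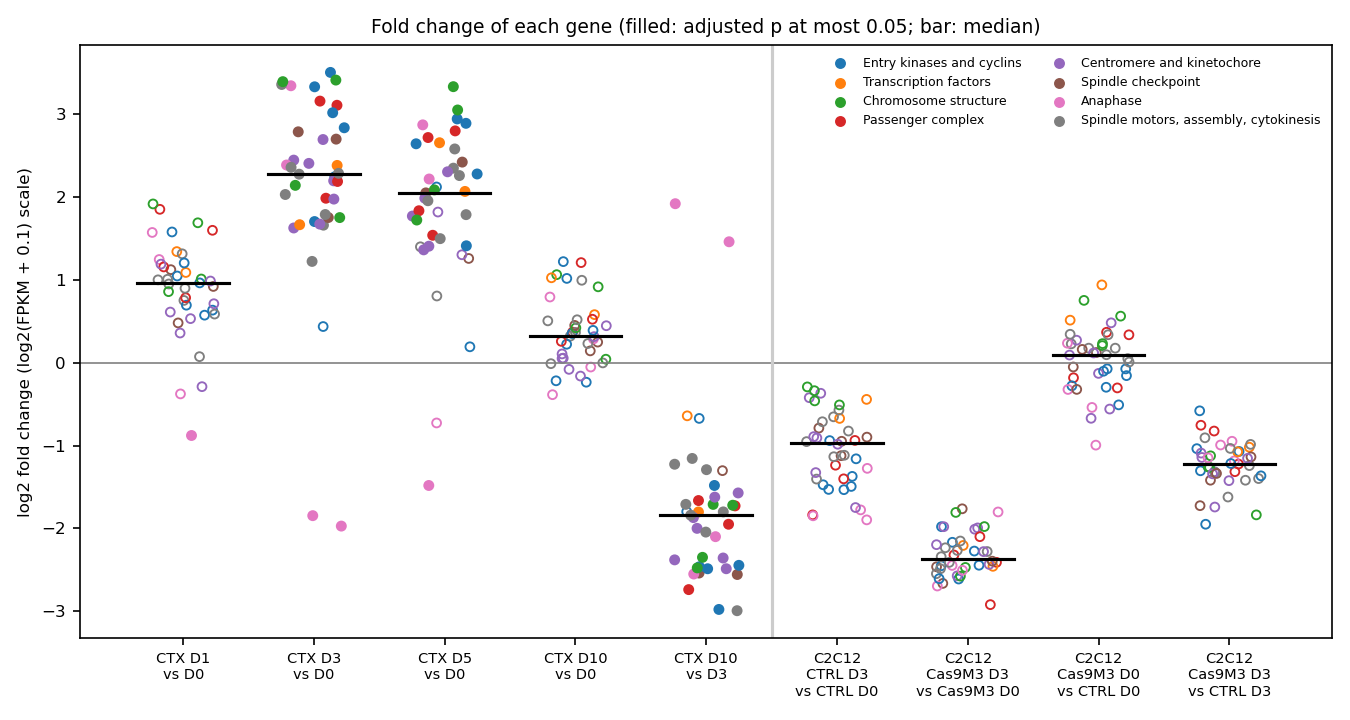
Log2 fold change of each gene in 9 comparisons, coloured by role, filled where the adjusted p was at most 0.05, with a bar at the median. Day 3 and day 5 lie above 0 except for Pttg1 and Ube2c, and in C2C12 every gene lies below 0 in D3 against D0 without a call.

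In C2C12, Mettl3 was first read in every library as a check of the labels. It stood at 4.70 and 5.65 FPKM in CTRL D0, 4.68 and 5.15 in CTRL D3, 0.331 and 0.118 in Cas9M3 D0, and 0.148 and 0.0805 in Cas9M3 D3. The cells were negative for the defining macrophage markers Adgre1 and C1qa, both at 0 in every library, and 3 of the 6 macrophage and monocyte markers were at 0 while the list summed to 6.80 to 22.3 FPKM. Most of that sum was Cd14, at 5.98 to 16.3 FPKM, and Cd68 stood at 0.669 to 6.38. Myod1, the myoblast factor, was present at 2.17 to 31.2 FPKM, while Pax7 was at most 0.0373.

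The mitotic genes were lower on D3 than on D0 in Cas9M3 cells, and on D3 they were lower in Cas9M3 than in CTRL cells, in every library for all 40 genes. With all groups in the fit, limma called 0 of the 40 genes in any of the 5 comparisons. In these 2 comparisons 39 and 20 passed an unadjusted p of 0.05, where 1748 and 2429 of all 13824 genes did. In CTRL D0, all 40 genes were higher in replicate 2, by a median factor of 2.87, from 1.00 for Mybl2 to 9.59 for Ube2c, 8.13 for Birc5 and 8.04 for Pttg1. In Cas9M3 D0 all 40 were also higher in replicate 2, by a median factor of 1.67. With all groups in the fit, the spread of both pairs enters the error of every comparison in the table.

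The excess in replicate 2 went with short exons. Over the 40 genes, the log2 ratio of replicate 2 to replicate 1 had a Spearman correlation with summed exon length of -0.64 in CTRL D0, -0.54 in Cas9M3 D0, -0.61 in CTRL D3 and -0.69 in Cas9M3 D3, as a description over genes that share their libraries. Over all genes tested, those under 2 kb had a median log2 ratio of 0.77 in CTRL D0 and those over 6 kb one of -0.46. In the other groups these were 0.26 and -0.14 (Cas9M3 D0), 0.25 and -0.20 (CTRL D3), and 0.19 and -0.11 (Cas9M3 D3). The ribosomal RNA share above had the same order between replicates. Replicate 1 of CTRL D0 also held more of the 6 fibre markers, 112 FPKM against 10.3 in replicate 2, and replicate 1 of Cas9M3 D0 held 71.7 against 3.17. The part of length, ribosomal RNA or differentiated cells in the difference was not tested.

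**Figure D5:**
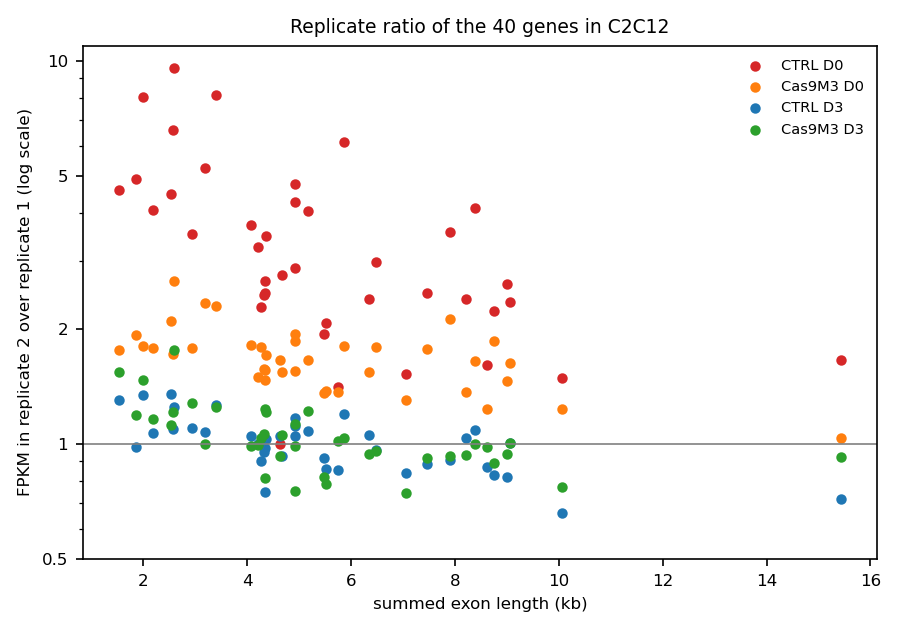
Ratio of FPKM in replicate 2 to replicate 1 (log axis) against summed exon length, for the 40 genes in each C2C12 group. In CTRL D0 all ratios are at or above 1.00 and reach 9.59 for short genes. In Cas9M3 D0 all lie above 1 and reach 2.66, while in both D3 groups they lie on both sides of 1.

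In CTRL cells, the median log2 fold change from D0 to D3 was -0.97 and all 40 genes were lower. None was called, where 1.14% of all genes were called in either direction. At an unadjusted p under 0.05 there were 7 of the 40, where 2520 of all 13824 genes were. For 27 genes both D3 libraries lay below both D0 libraries, where 22.4% of all genes did so. Without replicate 1 of CTRL D0, 33 of the 40 genes fell (14% of all genes did) with a median of -1.85, and without replicate 2 none was called (0.405% of all genes were lower) with a median of -0.30. The size of this change thus rests on which D0 library is used. By role, the median was largest for the anaphase genes (-1.81) and smallest for chromosome structure (-0.40). Summed exon length was 1868 to 2600 bases for Cdc20, Pttg1 and Ube2c, 8749 for Espl1, and 5478 to 10061 for the chromosome genes. The part of exon length in this order was not tested. The genes with the largest values were Ube2c (-1.90 ± 1.03, adjusted p = 0.361, with CTRL D3 values not told apart from Tnnc2), Pttg1 (-1.85 ± 0.91, adjusted p = 0.327) and Birc5 (-1.84 ± 0.93, adjusted p = 0.338). Those with the smallest were Smc2 (-0.29), Ncapg (-0.34) and Cenpe (-0.37). Ncapg had 4.31 and 6.58 FPKM in CTRL D0, 4.58 and 3.84 in CTRL D3, 5.40 and 7.04 in Cas9M3 D0, and 1.96 and 1.45 in Cas9M3 D3. Cenpe stood at 4.43 and 7.12, 4.65 and 4.04, 7.10 and 8.78, and 1.92 and 1.89 FPKM in the same order of groups.

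In Cas9M3 cells, the median from D0 to D3 was -2.37, the values ran from -2.92 (Aurkb) to -1.76 (Mad2l1), and both D3 libraries lay below both D0 libraries for all 40 genes, where 24.1% of all genes did so. None of the 40 was called (lowest adjusted p = 0.0666), where 0.0289% of all genes were called. At an unadjusted p under 0.05 there were 39, where 1748 of all 13824 genes were. Without CTRL D0 replicate 1, a library outside this comparison, 37 genes fell (2.44% of all genes did), and without CTRL D0 replicate 2 also 37 (2.4% of all genes). A fit of these 4 libraries alone, which holds neither CTRL D0 library, called 0 of the 40 (0% of all genes were lower). Pseudocount 1 gave 4 genes lower (0.268% of all genes were), quantile normalization 3 (0.123% of all genes) and a fit without the trend 3 (0.253% of all genes).

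Between Cas9M3 and CTRL on D3, the median was -1.22, from -1.95 (Ccna2) to -0.58 (Cdk1), and both Cas9M3 libraries lay below both CTRL libraries for all 40 genes, where 34.2% of all genes did so. None was called (lowest adjusted p = 0.0847), where 1.98% of all genes were called in either direction. At an unadjusted p under 0.05 there were 20, where 2429 of all 13824 genes were. A fit of these 4 libraries alone called 38 of the 40 lower (10.2% of all genes were lower), and the fits without replicate 1 or 2 of CTRL D0 called 15 each (2.69% and 2.71% of all genes were lower). On D0 the median was 0.09, with 23 genes higher and 17 lower, 0 called (0% of all genes called). At an unadjusted p under 0.05 there were 2, where 1244 of all 13824 genes were. No gene of the 40 had both Cas9M3 libraries below both CTRL libraries on D0, where 13.8% of all genes did. For Foxm1, Mki67 and Mybl2 both Cas9M3 libraries lay above both CTRL libraries, where 15.6% of all genes did. These 3 were thus above on D0 and below on D3, as were 3.41% of all genes. The difference between D3 and D0 in the effect of the construct was tested directly, and 0 of the 40 were called (0% of all genes called). Its median was -1.36, and 15 were at an unadjusted p under 0.05, where 1198 of all 13824 genes were.

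Single genes show the pattern. Cdk1 had 13.0 and 62.0 FPKM in CTRL D0, 9.64 and 10.7 in CTRL D3, 21.7 and 33.7 in Cas9M3 D0, and 6.82 and 6.72 in Cas9M3 D3. The CTRL D0 libraries enclosed those of Cas9M3 D0, and the D3 groups did not overlap, with a difference of -0.58 and a 95% interval from -2.20 to 1.04. Ccnb1 stood at 15.1 and 49.4, 12.2 and 12.2, 21.3 and 31.7, and 4.67 and 4.65 FPKM in the same order of groups, and Plk1 at 17.1 and 70.0, 11.8 and 12.6, 24.2 and 43.0, and 4.83 and 5.60. For both genes Cas9M3 D3 was below CTRL D3 in each library, with values of -1.37 (interval -2.63 to -0.10) for Ccnb1 and -1.22 (-2.75 to 0.32) for Plk1.

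The chromosome genes had the smallest median change of the roles in CTRL cells, and the part of exon length in that was not tested. Mki67 had 16.6 and 24.6 FPKM in CTRL D0, 18.04 and 11.9 in CTRL D3, 30.7 and 37.9 in Cas9M3 D0, and 6.90 and 5.33 in Cas9M3 D3. In CTRL cells its D0 and D3 libraries overlapped (-0.46 ± 0.30), while in Cas9M3 cells the value was -2.47 ± 0.30 without passing the threshold (adjusted p = 0.0666). Top2a stood at 17.5 and 45.6, 21.9 and 17.9, 27.5 and 39.99, and 5.64 and 5.30 FPKM in CTRL D0, CTRL D3, Cas9M3 D0 and Cas9M3 D3, and Smc2 at 9.68 and 18.8, 11.5 and 10.5, 17.1 and 23.2, and 5.51 and 4.51. For both, the CTRL D3 values lay inside the CTRL D0 range and those of Cas9M3 D3 below all others. Foxm1 had 12.1 and 17.0 FPKM in CTRL D0, 9.69 and 8.26 in CTRL D3, 17.6 and 23.9 in Cas9M3 D0, and 4.32 and 4.40 in Cas9M3 D3, and Mybl2 2.41 and 2.41, 1.71 and 1.79, 3.67 and 6.07, and 0.806 and 0.749. The 4 groups of these transcription factor genes did not overlap, in the order Cas9M3 D3, CTRL D3, CTRL D0 and Cas9M3 D0.

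Checkpoint, kinetochore and passenger genes went the same way. Bub1b stood at 11.3 and 25.6 FPKM in CTRL D0, 8.15 and 7.36 in CTRL D3, 13.8 and 24.8 in Cas9M3 D0, and 2.79 and 2.88 in Cas9M3 D3. Aurkb had 8.88 and 31.4, 6.70 and 7.38, 16.2 and 28.8, and 2.45 and 3.12 FPKM in that order, and the value of -2.92 in Cas9M3 cells had an interval from -4.34 to -1.50. Birc5 was spread most of these, with 10.4 and 84.3 FPKM in CTRL D0 against 7.30 and 9.24 in CTRL D3, 17.3 and 39.4 in Cas9M3 D0, and 4.32 and 5.38 in Cas9M3 D3. Ndc80 stood at 3.24 and 9.68, 2.84 and 2.74, 3.83 and 6.84, and 1.06 and 1.02 FPKM, and Cenpf at 4.33 and 7.17, 4.88 and 3.50, 6.63 and 6.88, and 1.66 and 1.54. In each of these genes the Cas9M3 D3 libraries were the lowest of the 8.

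Among the anaphase genes, Cdc20 was at 27.9 and 137 FPKM in CTRL D0, 18.2 and 17.8 in CTRL D3, 35.7 and 68.7 in Cas9M3 D0, and 8.24 and 9.80 in Cas9M3 D3. Pttg1, which ran against the others in muscle, had 14.2 and 114, 9.57 and 12.9, 15.0 and 27.04, and 4.70 and 6.91 FPKM, so in C2C12 it was lower on D3 like the rest. Ube2c stood at 11.9 and 114, 8.78 and 11.0, 15.5 and 41.3, and 3.30 and 5.79 FPKM, of which the CTRL D3 values cannot be told apart from Tnnc2. Of the spindle genes, Kif11 had 6.17 and 15.3, 6.90 and 6.12, 9.26 and 16.3, and 2.64 and 2.43 FPKM and Tpx2 18.3 and 50.3, 14.3 and 13.3, 26.2 and 40.3, and 6.50 and 6.84. Kif11 in CTRL D0 replicate 1 lay within the CTRL D3 range, whereas Tpx2 did not.

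The 67 other mitosis genes were also lower on D3 in Cas9M3 cells (67 of 67, median -2.11, 0 called), with values from -2.57 (Sgo1) to -0.31 (Zwint). On D3 they were lower in Cas9M3 than in CTRL for 66 of 67 (median -0.9996, 0 called), with Wee1, the kinase that inhibits Cdk1, at 0.39. Of the 20 DNA replication genes, 1 was called lower from D0 to D3 in Cas9M3 cells, Rrm2 (-2.94, adjusted p = 0.00895), where 2 of all 13824 genes were. Rrm2 was also lower in CTRL cells (-1.21, adjusted p = 0.0394), where 52 of all genes were. The differentiation markers did not share this course. Myog stood at 11.1 and 2.70 FPKM in CTRL D0, 89.1 and 83.3 in CTRL D3, 12.7 and 0.182 in Cas9M3 D0, and 3.50 and 2.28 in Cas9M3 D3, and the skeletal actin gene Acta1 at 106 and 9.24, 414 and 362, 67.2 and 2.41, and 10.3 and 7.89. The CTRL D3 cells thus had the highest differentiation markers and intermediate mitotic transcripts, and the Cas9M3 D3 cells had low values of both. What part differentiation has in the values of the mitotic genes was not tested.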

How the data were processed

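RNA-seq was made from 10 TA muscle libraries and 8 C2C12 libraries, with 2 per group. RNA was extracted with TRIzol and libraries were made with a SMARTER mRNA-Seq kit. The authors aligned reads with HISAT2 to GRCm38 (mm10), counted them by featureCounts and, in DESeq2, turned the counts into FPKM, the unit of the deposited tables. Versions and the strand setting of the counting are not given in the sources used here. The 8 overexpression libraries were not analysed here.

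From the deposited FPKM values, log2(FPKM + 0.1) was fitted with limma 3.58.1 in R 4.3.3 (lmFit, then eBayes with trend), with all groups of a table in 1 fit, after a filter of 0.5 FPKM in at least 2 libraries. p-values were adjusted by Benjamini-Hochberg over all genes tested. Depth was recovered from low values as whole reads, within a tolerance of 0.02 reads. Python 3.11.15, pandas 2.3.3, numpy 2.4.6 and matplotlib 3.10.9 were used for the remaining steps. The fit was tested on simulated data. Intervals are 95% intervals of limma, and the floor at 0 is 3 reads.

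The genes and the gene lists were chosen with earlier results of these data known. Values per library were given for a fixed set of genes that covers each role, for the 3 largest and 3 smallest changes on day 3 of muscle and in CTRL cells, for genes against the majority, and for those that failed the filter. Same-numbered muscle libraries deviated together with correlations of -0.0187 to 0.211 over pairs of groups, so their numbers were not taken as pairs. In C2C12 they deviated together in every pair of groups (0.278 to 0.68), and by that measure the numbers pair the samples. The C2C12 errors, p-values and intervals given here come from the fit without that pairing. With a replicate block in the fit, 0 of the 40 genes were called in each C2C12 comparison. Other pseudocounts, filters, scalings, a replicate block, a term for Xist, a fit of the groups compared and leaving out each library were tried.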

Additional observations from a re-analysis of the deposited data

Results flagged for a closer look

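In 3 genes, both Cas9M3 libraries lay above both CTRL libraries on D0 and below both on D3, as they did for 471 of all 13824 genes tested (3.41%). The difference of the log2 fold changes between D3 and D0 was -1.53 for Foxm1, -2.01 for Mki67 and -2.02 for Mybl2. This difference was tested as an interaction in limma, and none of the 3 passed the threshold (adjusted p = 0.312, 0.283 and 0.280).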

How the results depend on the processing

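The number of genes called moved by more than 1.5 times under these alternatives, and the cause was not tested. Calls over all genes moved as well, so a count alone does not place the list against all genes. On day 5 against day 0, 2169 of all 16753 genes were higher and 2098 lower, but 0 with the Xist term. For Cas9M3 against CTRL on D3, 179 of 13824 were higher and 95 lower. With only the groups compared, 1491 and 1337 of 13079 were. The single call of day 1 against day 0 went to 0 with pseudocount 0.01, no filter, quantile normalization, no trend, the Xist term, only the groups compared and the DEG threshold. Day 3 against day 0 gave 22 calls with the Xist term and 25 with the DEG threshold, and day 5 against day 0 gave 19 without a filter, 0 with the Xist term and 19 with the DEG threshold. Day 3 against day 1 gave 26 with pseudocount 1, 9 without a filter, 6 with the Xist term and 4 with the DEG threshold. Day 5 against day 3 gave 2 with pseudocount 1 and 0 without a filter, with quantile normalization, the Xist term or the DEG threshold. Day 10 against day 3 gave 10 with the Xist term and 17 with the DEG threshold. Cas9M3 D3 against Cas9M3 D0 gave 4 with pseudocount 1 and 3 each with quantile normalization and no trend, and Cas9M3 against CTRL on D3 gave 38 with only the groups compared.

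Leaving out 1 library gave 0 to 1 calls on day 1, 21 to 38 on day 3 and 0 to 31 on day 5 against day 0, 2 to 22 for day 3 against day 1, 0 to 1 for day 5 against day 3 and 8 to 36 for day 10 against day 3. In C2C12 it gave 0 to 33 for CTRL D3 against D0, 0 to 37 for Cas9M3 D3 against D0, 0 to 15 for Cas9M3 against CTRL on D3, and 0 otherwise. The lone library left in a group was assumed to vary like the others. Calls over all genes also differed between these fits, so these counts alone do not place the list against all genes. The median log2 fold change ran from -0.0776 (without day 0 replicate 1) to 0.7709 for day 10 against day 0, from -0.7258 to 0.1389 (without day 3 replicate 1) for day 5 against day 3, and from -0.6736 (without CTRL D0 replicate 1) to 0.8216 for Cas9M3 against CTRL on D0, where it was -0.2853 without Cas9M3 D0 replicate 2. Aurka on day 3 was at -0.0748 with the Xist term, and at -0.0748 to 0.9498 when 1 library was left out. Of 1932 other fits of 105 single-gene values, 1706 kept direction and side of the threshold, 108 passed it newly, 116 lost it and 2 reversed. With the replicate block, 38 genes were called on day 3 and 32 on day 5 against day 0, 17 for day 3 against day 1 and 35 for day 10 against day 3, and 0 in each C2C12 comparison, so that no count moved by over 1.5 times.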
